A study of Mus musculus with 12 samples.

Results

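Type I interferon-stimulated genes were followed in 12 spleen RNA-seq libraries from lupus-prone mice. The set held 35 genes, picked by symbol as well-known targets of type I interferon, with earlier results of these data known. All 35 were found among the 53715 gene identifiers of the deposited count table, and all 35 were among the 18542 genes with enough counts to be tested. They were ordered by what their proteins do: the ISG15 system, the IFIT family, the OAS family, direct antiviral effectors, nucleic acid sensors, regulators of transcription and signalling, and 4 others.

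The libraries formed 3 groups of 4. The first came from 10-week-old mice whose drinking water held 6 g/L of 2-deoxyglucose (2DG), an inhibitor of glycolysis that resembles glucose. Another came from untreated mice of the same age, 10 weeks, and the last from untreated mice aged 6 weeks. Every mouse, controls included, was BXSB.Cg-Cd8atm1Mak Il15tm1Imx Yaa, which the labels shorten to Yaa DKO. Yaa is a copy of an X chromosome segment on the Y chromosome that gives males a further copy of Tlr7, an endosomal RNA receptor upstream of type I interferon. The targeted alleles are of Cd8a, a chain of the CD8 coreceptor, and Il15, a cytokine that CD8 T cells and natural killer cells need. No group had an intact Cd8a and Il15 genotype or lacked Yaa, so neither can be set against a value here. The labels do not say that each library came from its own mouse, and p-values then measure the spread between these libraries, which may be technical.

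Type I interferons bind the receptor IFNAR1/IFNAR2, whose kinases JAK1 and TYK2 phosphorylate STAT proteins. With IRF9 these form a complex that binds the interferon-stimulated response element (ISRE) in promoters and turns on genes that block viral replication or sense viral nucleic acids. Interferon gamma, in contrast, acts mainly through a complex without IRF9 at the gamma-activated site (GAS), and a raised expression of interferon-stimulated genes in blood is a known feature of human lupus.

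The element bound by this complex was looked for in the members' promoters, and the sequences below show where it sits in 6 members discussed here, beside 1 in which its letters were not found. RefSeq promoter windows on GRCm38.p6, of 300 bases reaching from 250 bases before the gene start to 50 after it, were matched by symbol for 25 of the 35 members; the others were Usp18, Oas2, Mx1, Mx2, Dhx58, Zbp1, Ifi204, Parp14, Ifi27l2a and Rtp4. Both strands were searched for the ISRE core, GAAA and GAAA with any 2 bases between them, for a longer form in which CT follows the core, and for the GAS letters, TTC and GAA with any 3 bases between them. Hits could overlap, and each longer form contains a core. The ISRE core stood in a window of 13 of the 25 members, or 52%, and of 3.99% of the 27025 genes with a window. The longer form was found for 7 members, or 28%, and for 0.303% of all genes. The GAS letters were found for 6 members, or 24%, and for 9.55% of all genes. A match describes the letters and is not evidence of binding, and no match says only that these letters are not in this window. Zbp1 and Parp14, on which the comparison of 2DG with untreated spleens turns, were without a window, and Irf7, Isg20, Oasl2 and Samd9l were among the 12 members with a window but no core.

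The bases upstream of the start of these members are given 5′ to 3′ along the gene, with the ISRE core in capitals on either strand, so that it reads as TTTC, 2 bases and TTTC where it lies on the other strand. Isg15 (chr4:156200819-156201068, minus strand), the ubiquitin-like modifier after which the genes are often named, has 3 overlapping cores, the first starting 78 bases before the gene.
Isg15: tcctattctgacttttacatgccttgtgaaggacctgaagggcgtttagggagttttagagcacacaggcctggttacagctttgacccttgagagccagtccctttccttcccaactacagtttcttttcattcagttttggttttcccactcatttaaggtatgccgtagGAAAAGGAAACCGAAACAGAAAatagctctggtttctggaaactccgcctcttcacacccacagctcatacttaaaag
Rsad2 (chr12:26456453-26456702, minus strand), which encodes viperin, has 1.
Rsad2: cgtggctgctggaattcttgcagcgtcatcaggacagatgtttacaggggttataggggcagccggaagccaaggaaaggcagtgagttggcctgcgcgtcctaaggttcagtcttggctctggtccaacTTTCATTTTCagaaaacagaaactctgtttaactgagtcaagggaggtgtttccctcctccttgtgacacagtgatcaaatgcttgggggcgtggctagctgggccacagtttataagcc
Ifit1 (chr19:34640639-34640888, plus strand), an RNA-binding protein, has 2 cores close to the gene.
Ifit1: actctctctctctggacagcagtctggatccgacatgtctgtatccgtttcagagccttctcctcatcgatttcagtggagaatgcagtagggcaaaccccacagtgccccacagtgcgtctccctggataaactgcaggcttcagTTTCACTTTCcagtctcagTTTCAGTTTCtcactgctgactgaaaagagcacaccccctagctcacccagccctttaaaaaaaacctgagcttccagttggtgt
Ifit3 (chr19:34583279-34583528, plus strand) and Ifit3b (chr19:34607707-34607956, plus strand) are neighbouring near-copies, and both carry 2 cores of the same letters.
Ifit3: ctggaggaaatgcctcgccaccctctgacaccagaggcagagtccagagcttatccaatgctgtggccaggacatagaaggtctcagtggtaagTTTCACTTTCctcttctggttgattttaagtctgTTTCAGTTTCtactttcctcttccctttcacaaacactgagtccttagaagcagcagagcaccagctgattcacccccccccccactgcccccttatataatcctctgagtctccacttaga
Ifit3b: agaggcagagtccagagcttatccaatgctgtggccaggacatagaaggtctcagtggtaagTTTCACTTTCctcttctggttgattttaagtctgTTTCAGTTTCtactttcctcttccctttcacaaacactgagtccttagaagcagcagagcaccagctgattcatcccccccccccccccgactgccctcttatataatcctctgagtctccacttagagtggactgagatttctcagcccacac
Bst2 (chr8:71537473-71537722, minus strand), which encodes tetherin, has 2 overlapping cores.
Bst2: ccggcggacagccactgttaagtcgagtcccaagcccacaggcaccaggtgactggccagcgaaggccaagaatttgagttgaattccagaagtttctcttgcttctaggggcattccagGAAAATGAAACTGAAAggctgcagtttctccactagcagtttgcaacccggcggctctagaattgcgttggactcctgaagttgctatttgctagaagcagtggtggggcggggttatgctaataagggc
Oasl2 (chr5:114896684-114896933, plus strand), an OAS-like protein, has none and is shown in lower case throughout.
Oasl2: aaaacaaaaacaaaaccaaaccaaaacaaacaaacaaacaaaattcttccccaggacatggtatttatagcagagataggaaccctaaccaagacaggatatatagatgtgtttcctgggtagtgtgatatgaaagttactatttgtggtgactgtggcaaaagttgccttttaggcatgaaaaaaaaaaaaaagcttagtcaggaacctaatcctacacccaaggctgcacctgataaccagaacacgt

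Total counts per library ran from 15596040 to 26079979. Markers of the tissue were present in every library: no gene of the lists for mature B cells (11 genes), T cells (10) and red pulp macrophages (11) was at 0 in any of the 12. In bulk spleen RNA, fewer cells of a type and less RNA per cell cannot be told apart. Levels are normalised read counts (CPM, counts scaled to a common library size with TMM factors) and are listed in the order of the replicate numbers, 9 to 12 with 2DG, 5 to 8 untreated at 10 weeks and 1 to 4 at 6 weeks.

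A pair of libraries stood apart from their own groups in these genes, and the group comparisons are therefore given with and without them. In replicate 1 of the 6-week spleens, 35 of 35 members had their highest level of that group, whereas 28.9% of all tested genes did. Its members lay a median of 0.67 above the mean of the other 3 libraries of the group on the log2 scale. In replicate 6 of the untreated 10-week spleens, 33 of 35 members had the lowest level of the group, against 30.6% of all tested genes, and 26 had the lowest of all 12 libraries. Its median log2 ratio to the other 3 libraries was -0.93 for the members and -0.010 for all genes. The 2 members for which replicate 6 was not the lowest were Ifit2 and Ifih1, an RNA-binding protein and an RNA sensor. Both are genes of the set for which replicate 8 was the lowest instead.

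The library mean of the 35 members, in log2 CPM, showed the same split. It was 5.45, 5.48, 5.27 and 5.45 in the 2DG spleens, against 5.89, 4.73, 5.97 and 5.54 in the untreated 10-week spleens and 6.24, 5.55, 5.74 and 5.43 in the 6-week spleens. The 2DG libraries lay close together, while the untreated 10-week libraries held both the lowest value of the series and the second highest. Group means were 5.41 ± 0.093 with 2DG, 5.53 ± 0.56 untreated at 10 weeks and 5.74 ± 0.36 at 6 weeks (SD, n = 4 each), so the differences between groups were smaller than the SD of the untreated groups. Without replicate 6 the untreated 10-week mean was 5.80 ± 0.23 (n = 3), and without replicate 1 the 6-week mean was 5.57 ± 0.16 (n = 3). The difference of 2DG minus untreated means at 10 weeks was -0.12. It was -0.39 without untreated replicate 6, but -0.0036 without replicate 5 and 0.025 without replicate 7, so its sign turned with 1 library. The difference of untreated 10-week minus 6-week means was -0.21, and it was 0.060 without 10-week replicate 6.

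**Figure D1:**
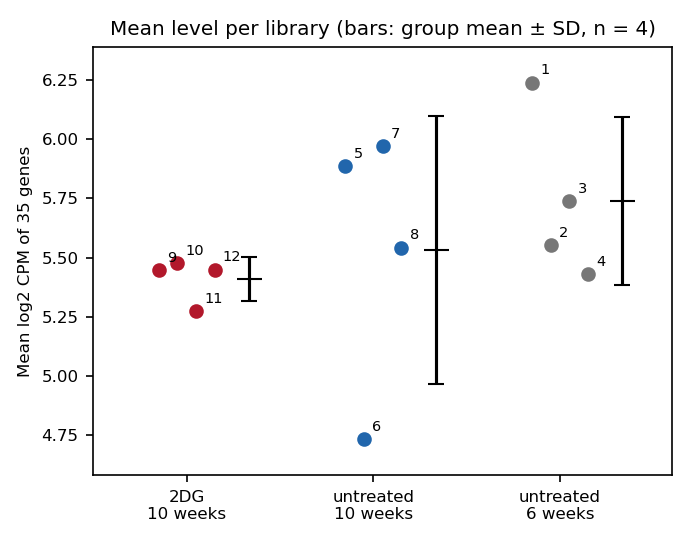
Mean log2 CPM of the 35 interferon-stimulated genes in each library (points, numbered by replicate) by group, with group means ± SD (bars, n = 4). The 4 2DG libraries sit between 5.27 and 5.48, while untreated 10-week replicate 6 sits at 4.73 and 6-week replicate 1 at 6.24.

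Cell type marker sums also differed in these libraries, and their part in the levels of the members was not tested. Replicate 6 of the untreated 10-week spleens had the highest summed level in the series of 13 neutrophil markers, 3745 CPM, and of 11 red pulp macrophage markers, 4878 CPM. It also had the highest of 10 T cell markers, 984 CPM, and of 8 cytotoxic and natural killer cell markers, 64.5 CPM. It had the lowest of 11 mature B cell markers, 3733 CPM, and of 13 erythroid markers, 2892 CPM. The other untreated 10-week libraries had 537, 2023 and 731 CPM of neutrophil markers and 5368, 4601 and 7055 CPM of B cell markers. Replicate 1 of the 6-week spleens had the highest sums of that group for neutrophil markers, at 2835 CPM, and for 10 monocyte markers, at 3173 CPM. The same held for 10 plasma cell markers, at 4188 CPM, and for the erythroid markers, at 10231 CPM. Neutrophil sums were thus the highest of the group in both libraries, while the members were low in replicate 6 and high in replicate 1. None of the 7 plasmacytoid dendritic cell markers, a cell type known for secreting type I interferon, was at 0 in any library, and their sum ran from 376 to 443 CPM with 2DG, from 360 to 497 CPM untreated at 10 weeks and from 474 to 505 CPM at 6 weeks.

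**Figure D2:**
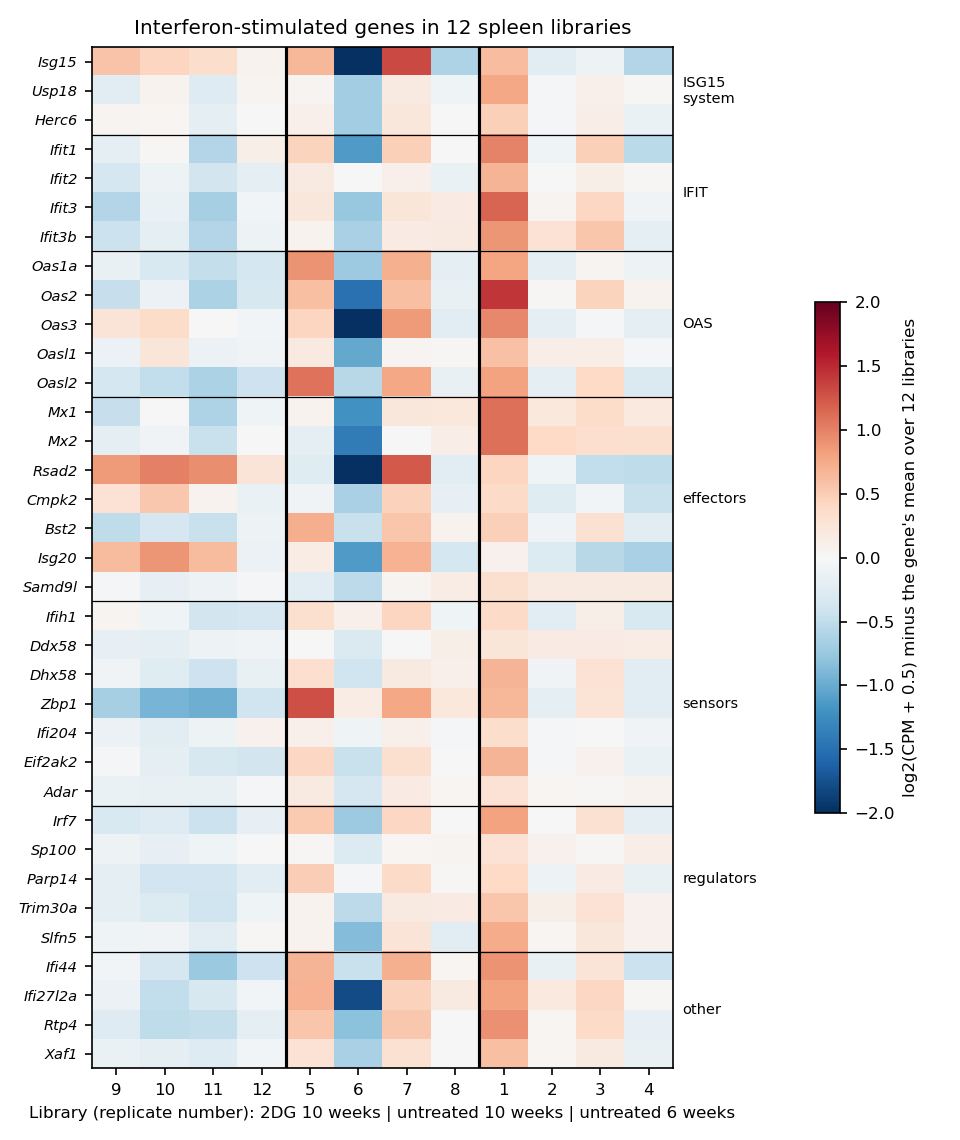
Level of each member in each library as log2(CPM + 0.5) minus the gene's mean over the 12 libraries, with genes grouped by role and libraries by group; colours stop at 2 in either direction, which the values of Isg15, Oas3 and Rsad2 in untreated 10-week replicate 6 pass. Replicate 6 is low and 6-week replicate 1 is high across nearly all rows, while Rsad2 and Isg20 are high in 3 of the 4 2DG libraries.

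Spread between libraries of 1 group was wider for these genes than for most. Their coefficient of variation had a median of 12.4% with 2DG, 32.0% untreated at 10 weeks and 27.9% at 6 weeks, where the medians over all tested genes were 9.66%, 16.6% and 10.3%. Among the untreated 10-week libraries the highest level of a member was a median of 2.22 times the lowest, and for Rsad2 it was 21.4 times. Per kilobase of exon, the mean level over the 12 libraries was highest for Ifi27l2a, a small mitochondrial protein (189 CPM per kb), followed by Samd9l (97.8 CPM per kb) and Bst2 (75.9 CPM per kb). It was lowest for Mx2 (2.22 CPM per kb) and Ifit3b (2.15 CPM per kb). Rsad2, the member with the widest range, stood at 40.6 CPM per kb.

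The first question was whether 2DG, at 10 weeks of age, went with another level of the interferon-stimulated genes. Only 2 of the 35 members passed the test, both of them lower with 2DG, Zbp1 and Parp14. Over all tested genes 7.42% were called in this comparison, 5.26% lower and 2.16% higher, so the share of members called, 2 of 35, was near the background. At an unadjusted p under 0.05, 5 members were lower and none was higher, where 12.8% of all genes were lower and 11.7% higher. That count of lower members moved with single libraries. It was 17 without untreated 10-week replicate 6, where 13% of all genes were lower, and 2 without replicate 5, where 11% were. It was also 2 without replicate 7, with 2 members higher, where 12.8% of all genes were lower and 10.9% higher. It was 3 without 2DG replicate 11, where 10.5% were lower, and 3 without 2DG replicate 12, where 11.5% were. Estimates were negative for 24 members and positive for 11, with a median log2 fold change of -0.22 against 0.0096 over all tested genes. Levels in the groups did not overlap for 2 members, again Zbp1 and Parp14, both lower with 2DG, where 7.91% of all genes lay entirely lower. The fit took its estimate of the spread from the 6-week libraries as well. An edgeR fit of only the compared groups called 1 member, Zbp1, where 2.79% of all genes were called lower.

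Zbp1 (gene ENSMUSG00000027514.14, chr2:173206612-173218923, minus strand, GRCm38) encodes a sensor of left-handed nucleic acids that can start inflammatory cell death. It had 32.4, 27.0, 26.1 and 39.0 CPM in 2DG spleens, 128, 57.6, 89.1 and 60.3 CPM in untreated 10-week spleens and 82.7, 45.1, 62.9 and 44.9 CPM in 6-week spleens. All 4 2DG libraries lay below all 8 untreated ones, and within the untreated 10-week group replicates 5 and 7 were higher than replicates 6 and 8. The means were 31.1 ± 5.96 CPM with 2DG and 83.7 ± 32.8 CPM untreated at 10 weeks (SD, n = 4 each), a log2 fold change of -1.43, SE 0.29, edgeR adjusted p = 0.0153. The call was lost without 2DG replicate 10 (edgeR adjusted p = 0.0606) or replicate 11 (edgeR adjusted p = 0.0570). Over the 22 alternatives run the adjusted p lay between 5.45e-06 (DESeq2) and 0.177. The highest came from an edgeR test against a fold change of 1.5, and the next was the 0.0606 above.

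Parp14 (gene ENSMUSG00000034422.14, chr16:35832874-35871544, minus strand) encodes an ADP-ribosyltransferase that acts on cytokine signalling in macrophages and lymphocytes. It had 249, 215, 214 and 239.7 CPM in 2DG spleens, 396, 278, 366 and 285 CPM in untreated 10-week spleens and 369.7, 261, 316 and 253 CPM in 6-week spleens. Here too the 2DG libraries lay below every untreated one, but the gap was narrow, with 2DG replicate 9 close to 6-week replicate 4. The means were 229 ± 17.5 CPM with 2DG and 331 ± 58.8 CPM untreated at 10 weeks (SD, n = 4 each), a log2 fold change of -0.53, SE 0.14, edgeR adjusted p = 0.0380. Parp14 lost its call without any single 2DG library, without untreated 10-week replicate 5 or 7 and without 6-week replicate 3, with edgeR adjusted p of up to 0.118. The lowest edgeR adjusted p over all 22 alternatives was 0.00383. Parp14 lost its call too with no filter (edgeR adjusted p = 0.0878) and in a fit of only the compared groups (edgeR adjusted p = 0.0518). Of the 22 alternatives 12 called it. Parp14 was also not called in the test against a fold change of 1.5, a size that its estimate did not reach. Apart from that test no alternative gave an adjusted p above 0.118. A predicted gene on the same strand, Gm49730, shares exon bases with Parp14, and the sources used here do not give how reads were split between them.

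**Figure D3:**
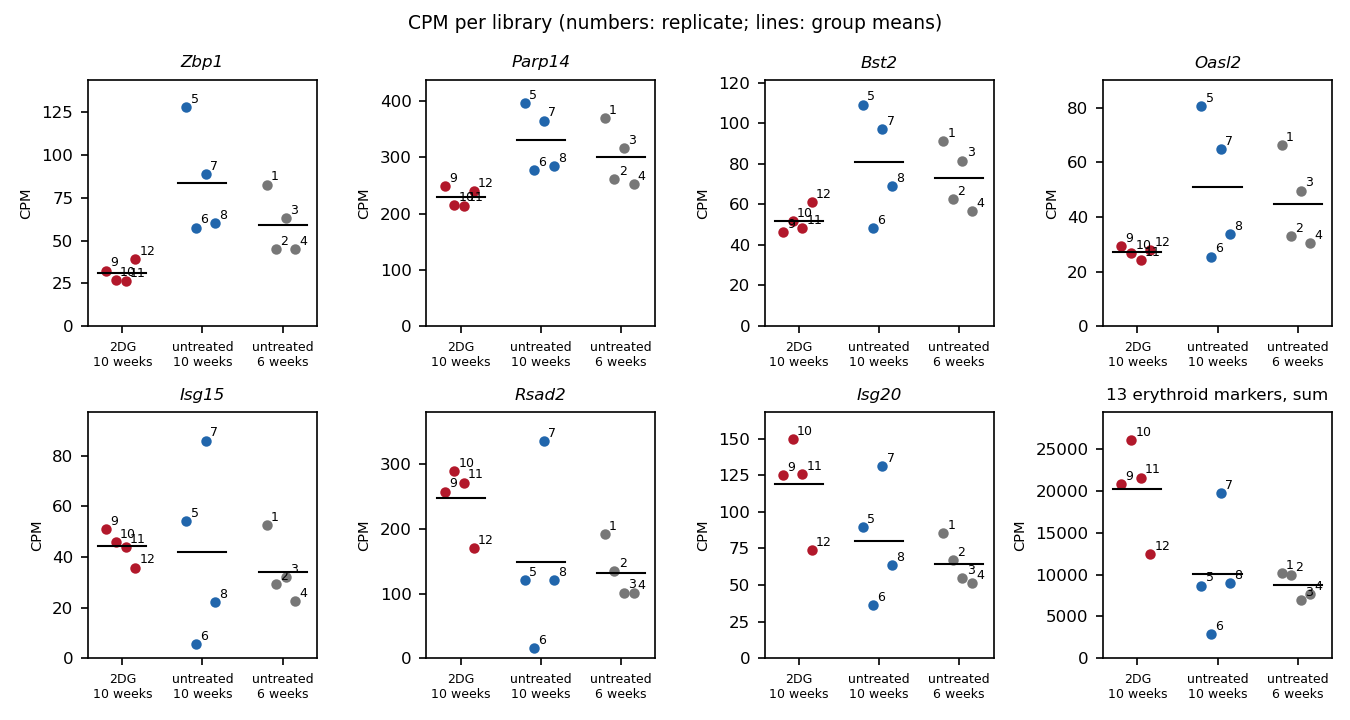
CPM per library (points, numbered by replicate) and group means (lines) of 7 members and of the summed 13 erythroid markers. The 2DG libraries lie below all untreated libraries for Zbp1 and Parp14, below those of untreated 10-week replicates 5, 7 and 8 for Bst2 and Oasl2, and, for Isg15, Rsad2 and Isg20, between the extremes set by untreated 10-week replicates 6 and 7 except 2DG replicate 10 for Isg20.

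Among the other nucleic acid sensors all 6 had negative estimates, and none passed. Ifih1, which encodes the RNA sensor MDA5, had 52.4, 47.5, 38.7 and 39.7 CPM in 2DG spleens, 63.0, 53.8, 67.7 and 47.4 CPM in untreated 10-week spleens and 65.3, 42.8, 54.7 and 40.5 CPM in 6-week spleens. Of the untreated 10-week libraries only replicate 8 lay below any 2DG library (log2 fold change -0.38, SE 0.16, edgeR adjusted p = 0.174). Eif2ak2, which encodes the kinase PKR that halts translation on binding double-stranded RNA, had 81.4, 74.1, 66.8 and 64.8 CPM in 2DG spleens, 112, 61.5, 105 and 83.7 CPM in untreated 10-week spleens and 135, 81.9, 88.7 and 76.7 CPM in 6-week spleens, and replicate 6 alone lay below the 2DG libraries (log2 fold change -0.34, SE 0.21, edgeR adjusted p = 0.352). Adar, the deaminase that edits double-stranded RNA, had 134, 132, 132 and 144 CPM in 2DG spleens, against 166, 116, 164 and 150.1 CPM in untreated 10-week spleens (log2 fold change -0.14, SE 0.10, edgeR adjusted p = 0.446). Its levels with 2DG were close together, and replicate 6 was again the only untreated 10-week library below them. Ifi204, a DNA-binding sensor of the interferon-inducible HIN family in mice, and the helicase genes Ddx58 and Dhx58 had log2 fold changes of -0.11, -0.096 and -0.29.

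In the OAS family, whose synthases make oligoadenylates that activate RNase L, none of 5 members passed and the estimates ran from -0.92 to 0.12. Oasl2, an OAS-like protein, had the lowest estimate, log2 fold change -0.92, SE 0.36, edgeR adjusted p = 0.148. It had 29.5, 26.7, 24.1 and 27.9 CPM in 2DG spleens, 80.7, 25.5, 64.8 and 33.7 CPM in untreated 10-week spleens and 66.3, 33.0, 49.7 and 30.6 CPM in 6-week spleens. The 2DG libraries lay below replicates 5, 7 and 8 and on either side of replicate 6. Oas2, a synthase, had 17.5, 22.2, 15.5 and 19.1 CPM in 2DG spleens, 36.7, 8.26, 36.7 and 21.7 CPM in untreated 10-week spleens and 65.7, 24.6, 32.9 and 25.5 CPM in 6-week spleens. Its fold change of -0.48 had an SE of 0.45 (edgeR adjusted p = 0.568), and replicate 6 stood far below the other untreated libraries. Oasl1, which in mice represses translation of Irf7 messenger RNA, had 11.5 to 14.9 CPM in 2DG spleens, against 5.92 to 14.2 CPM in untreated 10-week spleens, with replicate 6 the lowest (log2 fold change 0.12, SE 0.23, edgeR adjusted p = 0.796). Oas1a is 96.7% identical in coding sequence to Oas1g, so its counts are uncertain.

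All 4 genes of the IFIT family, whose proteins bind viral RNA, had negative estimates, between -0.37 and -0.22, and none passed. Ifit1 had 14.4, 16.7, 10.8 and 17.9 CPM in 2DG spleens, 22.6, 7.28, 23.0 and 16.5 CPM in untreated 10-week spleens and 33.3, 15.5, 23.0 and 11.2 CPM in 6-week spleens. Untreated 10-week levels ran from below all 2DG libraries (replicate 6) to above all of them (log2 fold change -0.22, SE 0.39, edgeR adjusted p = 0.790). Ifit2 had 29.2, 34.8, 28.8 and 32.9 CPM in 2DG spleens, 42.3, 37.5, 40.2 and 33.8 CPM in untreated 10-week spleens and 59.9, 37.4, 40.5 and 37.9 CPM in 6-week spleens. It was 1 of the few members whose replicate 6 was not low, and 3 of its 2DG libraries lay below every untreated library (log2 fold change -0.29, SE 0.14, edgeR adjusted p = 0.224). Ifit3 had 9.60, 13.4, 9.09 and 14.1 CPM in 2DG spleens, 17.4, 8.55, 17.4 and 16.5 CPM in untreated 10-week spleens and 33.8, 15.3, 19.8 and 14.1 CPM in 6-week spleens, and Ifit3b had 2.90, 3.56, 2.55 and 3.79 CPM in 2DG spleens, 4.33, 2.44, 4.62 and 4.69 CPM in untreated 10-week spleens and 7.93, 5.08, 6.27 and 3.50 CPM in 6-week spleens. In both genes replicate 6 lay below every 2DG library and the other 3 untreated 10-week libraries lay above every 2DG library. Their coding sequences are 99.1% identical, so counts between these 2 genes are uncertain. The estimates were -0.37 (SE 0.30, edgeR adjusted p = 0.496) for Ifit3 and -0.33 (SE 0.26, edgeR adjusted p = 0.475) for Ifit3b.

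Regulators followed the same course, with 4 of 5 estimates negative. Irf7, the transcription factor that amplifies interferon production, had 53.4, 55.4, 49.3 and 59.3 CPM in 2DG spleens, 95.2, 40.0, 88.8 and 66.8 CPM in untreated 10-week spleens and 117, 66.9, 81.7 and 58.5 CPM in 6-week spleens. All 2DG levels lay between replicate 6 and the other 3 untreated 10-week libraries (log2 fold change -0.42, SE 0.27, edgeR adjusted p = 0.370), and Irf7 overlaps exon bases of Phrf1 on the other strand, which this kit cannot separate. Sp100, a nuclear body protein, had 343, 328, 346 and 373 CPM in 2DG spleens, against 375, 304, 378 and 383 CPM in untreated 10-week spleens (log2 fold change -0.051, SE 0.082, edgeR adjusted p = 0.764). Replicate 6 lay below every 2DG library and the other 3 untreated libraries above. Trim30a, a ubiquitin ligase of the TRIM family, and Slfn5, of the schlafen family, had log2 fold changes of -0.23 and 0.047, and Trim30a is 90.2% identical to Trim30d in coding sequence.

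The 7 antiviral effectors did not share a direction, with 2 negative and 5 positive estimates, none past the threshold. Bst2, which tethers budding virions to the cell surface, had 46.2, 51.8, 48.5 and 61.2 CPM in 2DG spleens, 109, 48.2, 96.9 and 69.1 CPM in untreated 10-week spleens and 91.3, 62.5, 81.6 and 56.6 CPM in 6-week spleens. The 2DG libraries were below replicates 5, 7 and 8 and overlapped replicate 6 (log2 fold change -0.64, SE 0.24, edgeR adjusted p = 0.124), and Bst2 was called without replicate 6 (edgeR adjusted p = 0.0261). Mx1, of the dynamin-like GTPases, had 16.0, 22.2, 14.2 and 20.8 CPM in 2DG spleens, 23.2, 9.30, 25.9 and 25.7 CPM in untreated 10-week spleens and 47.9, 25.6, 28.8 and 25.4 CPM in 6-week spleens, with 2DG levels spread between replicate 6 and the other untreated libraries (log2 fold change -0.20, SE 0.32, edgeR adjusted p = 0.756). Samd9l, a restriction factor of poxviruses, had 515, 468, 492 and 510.2 CPM in 2DG spleens, against 451, 367, 544 and 581 CPM in untreated 10-week spleens (log2 fold change 0.031, SE 0.11, edgeR adjusted p = 0.903). Its 2DG levels lay in the middle of the untreated range.

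Rsad2, Isg20, Cmpk2 and Isg15 were among the members with estimates above 0, and their order over the libraries matched that of erythroid markers in part. Rsad2, which encodes viperin, an enzyme that makes a chain-terminating nucleotide, had 258, 289, 272 and 170.3 CPM in 2DG spleens, 121, 15.7, 336 and 121 CPM in untreated 10-week spleens and 193, 134, 102 and 100.4 CPM in 6-week spleens (log2 fold change 0.73, SE 0.66, edgeR adjusted p = 0.545). Of the 2DG libraries 3 lay above every untreated library except replicate 7, and 2DG replicate 12 lay below 6-week replicate 1. Isg20, an exonuclease that degrades RNA, had 125, 149.9, 126 and 74.2 CPM in 2DG spleens, 89.4, 36.5, 131 and 63.4 CPM in untreated 10-week spleens and 85.3, 67.0, 54.8 and 51.4 CPM in 6-week spleens (log2 fold change 0.57, SE 0.36, edgeR adjusted p = 0.369). Isg15, whose protein is conjugated to targets in interferon-treated cells, had 50.9, 46.0, 43.9 and 35.8 CPM in 2DG spleens, 54.2, 5.68, 85.9 and 22.1 CPM in untreated 10-week spleens and 52.4, 29.3, 32.0 and 22.5 CPM in 6-week spleens (log2 fold change 0.073, SE 0.62, edgeR adjusted p = 0.961). Replicates 6 and 7 of the untreated 10-week group held the lowest and the highest Isg15 level of the series, and all 2DG levels lay between. Cmpk2, a mitochondrial nucleotide kinase whose gene neighbours Rsad2 on chromosome 12, had a log2 fold change of 0.27. The summed level of 13 erythroid markers, none of them at 0 in any library, was 20771, 26057, 21581 and 12453 CPM in 2DG spleens, 8692, 2892, 19775 and 8970 CPM in untreated 10-week spleens and 10231, 9970, 6967 and 7641 CPM in 6-week spleens. For the markers, as for Rsad2, Isg20, Cmpk2 and Isg15, the lowest 2DG library was replicate 12, untreated 10-week replicates 7 and 6 were the highest and the lowest of their group, and 6-week replicate 1 was the highest of its group. Most of these places were shared by other members. Of all 35 members, 6-week replicate 1 was the highest of its group for 35 and untreated 10-week replicate 6 the lowest for 33. Untreated 10-week replicate 7 was the highest for 17, and 2DG replicate 12 the lowest for 6. The lowest 6-week library was replicate 3 for the markers but replicate 4 for the 4 genes, and the highest 2DG library was replicate 10 for the markers but replicate 9 for Isg15. Isg15 was higher in untreated 10-week replicate 5 and 6-week replicate 1 than in any 2DG library, while the markers were lower there than in every 2DG library. Of the erythroid markers 1 of 13 rose with 2DG, where 2.16% of all genes were called higher. The count was 8 without untreated 10-week replicate 7, where 3.7% of all genes were, and none without any 1 of 10 other libraries. All 13 estimates were positive, and the markers' part in the levels of these members was not tested.

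Of the ISG15 system apart from Isg15 itself, neither of the other genes passed the test. Usp18, which removes ISG15 from its targets and restrains signalling at IFNAR2, had 19.2, 23.5, 18.7 and 23.3 CPM in 2DG spleens, 23.3, 13.7, 25.6 and 21.1 CPM in untreated 10-week spleens and 38.8, 22.0, 24.1 and 22.8 CPM in 6-week spleens (log2 fold change 0.017, SE 0.21, edgeR adjusted p = 0.974). Herc6, the ISG15 ligase of mice, had 49.0, 48.3, 41.2 and 47.0 CPM in 2DG spleens, against 50.5, 28.9, 55.1 and 47.0 CPM in untreated 10-week spleens (log2 fold change 0.032, SE 0.18, edgeR adjusted p = 0.939). In both genes the 2DG libraries lay inside the untreated 10-week range. The remaining 4 members had negative estimates. Ifi44, a GTP-binding-like antiviral protein, had 49.0, 40.6, 30.3 and 38.4 CPM in 2DG spleens, 82.2, 37.4, 83.8 and 52.3 CPM in untreated 10-week spleens and 95.5, 45.8, 61.6 and 37.7 CPM in 6-week spleens (log2 fold change -0.69, SE 0.32, edgeR adjusted p = 0.219), and Xaf1, which promotes apoptosis by binding XIAP, had 82.6, 80.6, 76.1 and 87.3 CPM in 2DG spleens, against 112, 58.0, 113 and 91.7 CPM in untreated 10-week spleens (log2 fold change -0.20, SE 0.20, edgeR adjusted p = 0.601). Replicate 6 lay below or within the 2DG range for both, and the other untreated 10-week libraries lay above it.

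**Figure D4:**
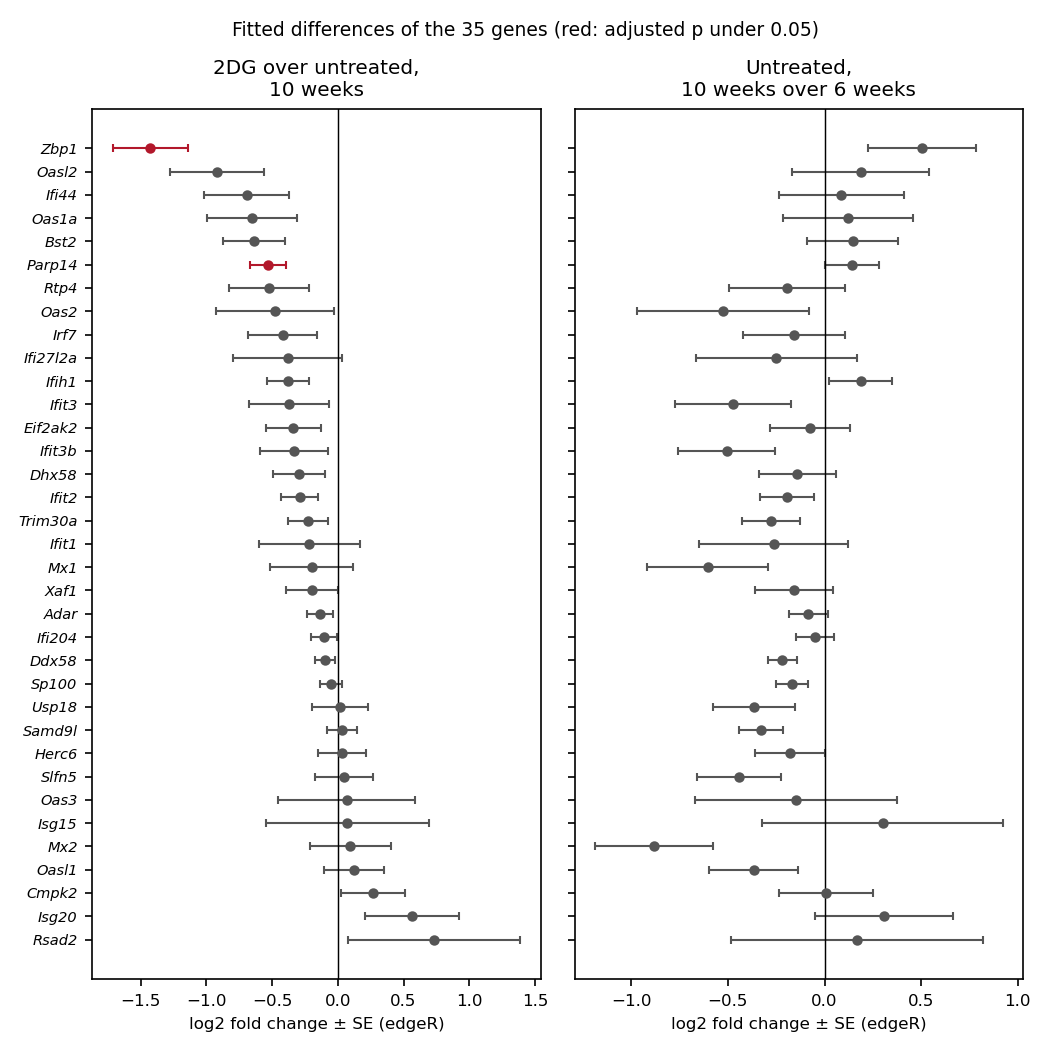
Fitted log2 fold changes ± SE (edgeR) of the 35 members for 2DG over untreated spleens at 10 weeks (left) and for untreated spleens at 10 over 6 weeks (right), in the same gene order, with genes past the threshold in red. Zbp1 and Parp14 are the red points on the left; no point on the right is red, and the widest bars are those of Rsad2 and Isg15.

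These counts depended on single libraries. Without untreated 10-week replicate 6, 5 members were lower with 2DG (Bst2, Ifi27l2a, Parp14, Trim30a and Zbp1), where 6.06% of all genes were called lower, 32 of 35 estimates were negative and the median was -0.37. With 6-week replicate 1, which enters through the shared estimate of the spread, also left out, a setting added after seeing the data, 14 members were lower, against 5.81% of all genes. They were Adar, Bst2, Eif2ak2, Ifi27l2a, Ifi44, Irf7, Oas1a, Oas2, Oasl2, Parp14, Rtp4, Trim30a, Xaf1 and Zbp1. Without 2DG replicate 10, or without 2DG replicate 11, no member was called, where 2.34% of all genes were called lower in either case. Leaving out 1 of 5 other libraries left 1 member called: untreated 10-week replicate 5 (3.05% of all genes called lower) or 7 (4.73%), 2DG replicate 9 (3.92%) or 12 (4.05%), or 6-week replicate 3 (4.47%). No setting called a member higher with 2DG.

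With age, from 6 to 10 weeks in untreated spleens, no member passed the edgeR test, where 0.00539% of all tested genes did, a single gene. DESeq2 called no member either, where it called 1.17% of all genes lower and 2.59% higher at 10 weeks. The smallest edgeR adjusted p of a member was 0.176, and 3 members were lower at 10 weeks at an unadjusted p under 0.05, where 7.88% of all genes were lower and 9.26% higher. Those were Mx2, Samd9l and Ddx58, and they were also the members whose groups did not overlap, where 3.33% of all genes lay entirely lower at 10 weeks. Samd9l had 451, 367, 544 and 581 CPM in untreated 10-week spleens, against 657, 593, 595 and 596 CPM in 6-week spleens (log2 fold change -0.33, SE 0.11, edgeR adjusted p = 0.179). Ddx58, which encodes the RNA sensor RIG-I, had 137, 113, 137 and 149 CPM in untreated 10-week spleens, against 163, 155, 154 and 152 CPM in 6-week spleens (log2 fold change -0.22, SE 0.075, edgeR adjusted p = 0.176). All 6-week libraries were higher for both genes, by a narrow margin over replicate 8. These 2 genes were called lower at 10 weeks when replicate 8 was left out, with 3.76% of all genes then called lower.

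Estimates with age moved with the libraries that stood apart. Ifit3b was the IFIT gene with the smallest p (log2 fold change -0.51, SE 0.25, edgeR adjusted p = 0.325), Usp18 that of the ISG15 system (log2 fold change -0.37, SE 0.21, edgeR adjusted p = 0.399), and Oasl1 that of the OAS family (log2 fold change -0.37, SE 0.23, edgeR adjusted p = 0.442). Sp100 among the regulators (log2 fold change -0.17, SE 0.082, edgeR adjusted p = 0.315) and Xaf1 among the rest (log2 fold change -0.16, SE 0.20, edgeR adjusted p = 0.734) were likewise below 0 at 10 weeks. In each of these 5 genes 6-week replicate 1 was the highest and untreated 10-week replicate 6 the lowest of its group. Of the 35 estimates 24 were negative, with a median of -0.16, against 0.0073 over all tested genes. The median was 0.056 without 6-week replicate 1 and 0.019 without untreated 10-week replicate 6. With both left out, 26 estimates were positive and the median was 0.20, so the sign of the set's median with age turned with these libraries. Of the 24 negative estimates 15 were then positive and 9 stayed negative, those of Ddx58, Ifit3b, Mx1, Mx2, Oasl1, Samd9l, Slfn5, Sp100 and Trim30a, and all 11 positive ones stayed positive. Mx2, at -0.88, and Zbp1, at 0.51, were the lowest and the highest estimate with all libraries in.

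Set against the 6-week spleens, 2DG spleens at 10 weeks had lower values for most members, though none passed the edgeR test, where 0.129% of all genes did. The fit shared 1 estimate of the spread with the untreated 10-week libraries, which were outside this comparison. Estimated within each group with edgeR, the coefficient of variation beyond counting noise was 0.114 with 2DG, 0.241 untreated at 10 weeks and 0.127 at 6 weeks. This comparison shares its libraries with the ones above and is not independent of them. At an unadjusted p under 0.05, 15 members were lower and 1, Isg20, was higher, where 8.14% of all genes were lower and 8.75% higher. Only 5 were lower without 6-week replicate 1, where 6.77% of all genes were lower. There were 10 without 2DG replicate 9, where 7.31% of all genes were lower, 9 without 2DG replicate 10, where 5.84% were, and 9 without 2DG replicate 11, where 5.5% were. The 2DG levels lay entirely below the 6-week levels for 15 members and entirely above for none, where 7.69% of all genes lay entirely lower and 7.98% entirely higher. The smallest adjusted p was that of Ddx58, which had 123, 119.6, 128 and 131 CPM with 2DG, against 163, 155, 154 and 152 CPM at 6 weeks (log2 fold change -0.32, SE 0.075, edgeR adjusted p = 0.0883). Every 2DG library was below every 6-week one. Zbp1 had a log2 fold change of -0.92, SE 0.28, edgeR adjusted p = 0.142. Estimates were negative for 31 of 35 members, with a median of -0.41, and for 30 of 35, with a median of -0.25, without 6-week replicate 1. Other tools called members here, each of them lower with 2DG: DESeq2 called 5 (Ddx58, Ifit2, Ifit3b, Trim30a and Zbp1), where it called 2.25% of all genes lower. An edgeR fit of only these groups called 4 (Ddx58, Mx2, Samd9l and Trim30a), with 3.11% of all genes lower. With quality weights, voom called 8 (Ddx58, Ifit2, Ifit3b, Mx2, Samd9l, Sp100, Trim30a and Zbp1), with 3.81% of all genes lower.

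The genes that make, receive and transmit the interferon signal were examined beside the members. Ligands of type I and type III interferon were nearly absent from the counts. Of 19 such genes 15 had no count in any library, and the others summed to 16 counts over the 12 libraries, with at most 3 in a library. Ifnb1, which encodes interferon beta, had 3 counts in all, 1 over the 2DG libraries, 2 over the untreated 10-week libraries and none at 6 weeks, so a difference was not detectable at this depth. Ifng, which encodes interferon gamma, had 0.926, 0.251, 0.433 and 0.312 CPM in 2DG spleens, 4.17, 1.27, 2.43 and 1.28 CPM in untreated 10-week spleens and 0.886, 0.840, 0.957 and 0.798 CPM in 6-week spleens, and it fell with 2DG (log2 fold change -2.22, SE 0.45, edgeR adjusted p = 0.0118).

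Among genes that receive and transmit the signal, Stat2, Irf9, Ifnar1 and Ifnar2 did not pass the test of 2DG over untreated 10-week spleens. Stat2, a signal transducer in the complex at the ISRE, had 123, 114, 121 and 124 CPM in 2DG spleens, against 189, 115, 164 and 143 CPM in untreated 10-week spleens, and replicate 6 lay within the 2DG range (log2 fold change -0.35, SE 0.13, edgeR adjusted p = 0.109). Irf9, the DNA-binding subunit of the complex at the ISRE, had a log2 fold change of -0.020 (edgeR adjusted p = 0.940). The receptor genes Ifnar1 and Ifnar2 had log2 fold changes of 0.067 and 0.098 (edgeR adjusted p = 0.639 and 0.501).

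Of 18 genes that detect nucleic acids and induce interferon, 2 fell and 1 rose with 2DG, where 5.26% of all genes were called lower and 2.16% higher. Tmem173, which encodes the adaptor STING, had 94.2, 81.5, 93.0 and 95.5 CPM in 2DG spleens, against 159, 120.2, 139.7 and 114 CPM in untreated 10-week spleens (log2 fold change -0.55, SE 0.095, edgeR adjusted p = 0.00576), and Myd88, the adaptor of most Toll-like receptors, had 41.5, 41.5, 43.2 and 43.2 CPM in 2DG spleens, against 65.8, 66.4, 51.6 and 45.9 CPM in untreated 10-week spleens (log2 fold change -0.44, SE 0.10, edgeR adjusted p = 0.0231). Mavs, the mitochondrial adaptor of the RNA sensors encoded by Ifih1 and Ddx58, had 77.9, 84.2, 86.0 and 74.9 CPM in 2DG spleens, against 53.7, 55.0, 65.7 and 62.3 CPM in untreated 10-week spleens and rose (log2 fold change 0.45, SE 0.093, edgeR adjusted p = 0.0137). The groups did not overlap for any of the 3 genes. The call of Tmem173 held with any single library left out. Mavs lost its call without 2DG replicate 10 or 11 (edgeR adjusted p up to 0.0542), and Myd88 without 2DG replicate 9, 10 or 11 or untreated 10-week replicate 5 (up to 0.0760). Tlr7, of which Yaa males carry a further copy, had 193, 183, 177 and 201 CPM in 2DG spleens, 188, 212, 214 and 211 CPM in untreated 10-week spleens and 257, 202, 219 and 185 CPM in 6-week spleens (log2 fold change -0.13, SE 0.090, edgeR adjusted p = 0.413), and Irf5, which acts downstream of it, had a log2 fold change of 0.23 (edgeR adjusted p = 0.163). Among 8 tested negative regulators 4 fell with 2DG, where 5.26% of all genes did. Socs3 had 29.8, 25.0, 24.8 and 28.8 CPM in 2DG spleens, against 131, 124, 78.4 and 43.4 CPM in untreated 10-week spleens (log2 fold change -1.80, SE 0.29, edgeR adjusted p = 0.00602), and Socs1, which blocks JAK kinases, had 6.31, 5.52, 5.93 and 6.65 CPM in 2DG spleens, against 18.5, 10.2, 11.6 and 7.59 CPM in untreated 10-week spleens (log2 fold change -0.97, SE 0.24, edgeR adjusted p = 0.0326). Both lay entirely lower with 2DG. Trafd1, a brake on Toll-like receptor signalling, and Samhd1, which depletes nucleotides, fell by 0.41 and 0.39 on the log2 scale (edgeR adjusted p = 0.0220 and 0.0278). Of these 4 calls that of Socs3 alone held with any single library left out. Without 2DG replicate 9, 10 or 11, or without untreated 10-week replicate 5, 1 of the 8 genes was called, and the edgeR adjusted p reached 0.106 for Socs1, 0.0779 for Trafd1 and 0.0934 for Samhd1.

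Of a wider list of other interferon-stimulated genes a minority was called, while most genes chosen as targets of interferon gamma fell with 2DG. Of 64 tested other interferon-stimulated genes 7 fell with 2DG, none rose and the median log2 fold change was -0.16. Over all tested genes 5.26% were called lower and 2.16% higher. At an unadjusted edgeR p under 0.05, 24 of the 64 were lower and 1 was higher, where 12.8% of all genes were lower and 11.7% higher. Levels lay entirely lower with 2DG for 10 of the 64, where 7.91% of all genes did. The 7 called were Cxcl10, Dtx3l, Lap3, Lgals3bp, Ly6a, Mlkl and Slfn9. Cxcl10, a chemokine induced by both kinds of interferon, had 20.3, 19.8, 18.1 and 21.6 CPM in 2DG spleens, against 61.4, 25.9, 56.7 and 33.3 CPM in untreated 10-week spleens (log2 fold change -1.15, SE 0.27, edgeR adjusted p = 0.0269). Ly6a, which encodes Sca-1, and Mlkl, the executor of necroptosis, fell by 1.09 and 0.85 on the log2 scale (edgeR adjusted p = 0.0266 and 0.0246). None of the 64 was called lower without untreated 10-week replicate 5, 2DG replicate 10 or 2DG replicate 11, 3 were without 2DG replicate 9, 4 without 2DG replicate 12 or untreated 10-week replicate 7, and 11 without untreated 10-week replicate 8. With single libraries left out the edgeR adjusted p reached 0.0854 for Cxcl10, 0.0916 for Ly6a and 0.0813 for Mlkl. Among 20 interferon gamma genes, 15 fell with 2DG, none was higher past the threshold, and the median log2 fold change was -0.91. The count ran from 11 to 16 with single libraries left out. Irf1, a transcription factor, had 135, 116, 144 and 146 CPM in 2DG spleens, against 299, 256, 245 and 188 CPM in untreated 10-week spleens (log2 fold change -0.87, SE 0.12, edgeR adjusted p = 0.00222), Irgm1, an immunity-related GTPase, had 12.2, 11.0, 11.0 and 12.4 CPM in 2DG spleens, against 27.4, 23.9, 25.6 and 17.0 CPM in untreated 10-week spleens (log2 fold change -1.01, SE 0.16, edgeR adjusted p = 0.00403), and Tap1, a peptide transporter for antigen presentation, had 234, 181, 219 and 249 CPM in 2DG spleens, against 445, 350.5, 352 and 309 CPM in untreated 10-week spleens (log2 fold change -0.72, SE 0.12, edgeR adjusted p = 0.00403). None of these 3 genes overlapped between the groups, and replicate 6 was not the lowest untreated 10-week library in any of them, since replicate 8 was. Without replicate 6, 13 of the 20 interferon gamma genes and 16 of the 64 other genes were lower. The difference between the lists was not tested, and all of these lists were chosen with earlier results of these data known. Of 16 interferon gamma genes with a promoter window 6, or 37.5%, held the ISRE core and 9, or 56.2%, the GAS letters.

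**Figure D5:**
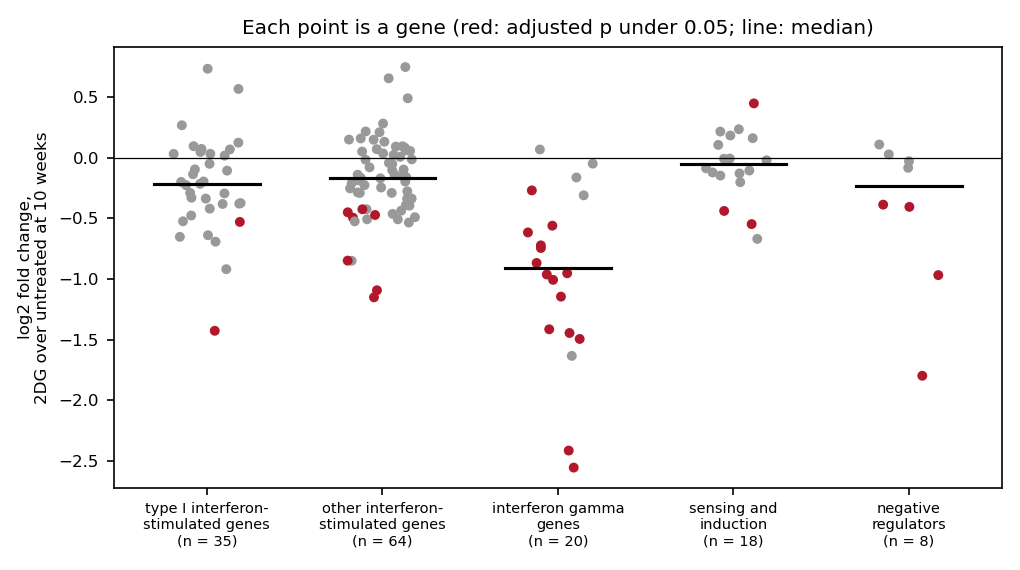
Fitted log2 fold changes of 2DG over untreated spleens at 10 weeks for the 35 members and 4 related lists, where each point is a gene (red where past the threshold) and lines are medians. Medians lie at -0.22 for the members, -0.16 for other interferon-stimulated genes and -0.91 for interferon gamma genes; 2 of 35, 7 of 64 and 15 of 20 points are red.

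Markers of other cell types were counted between these groups too, where 5.26% of all tested genes were called lower with 2DG and 2.16% higher. A single call in a list is little beside these shares, and the markers' part in the results for the members was not tested. With 2DG, 9 of 10 plasma cell markers fell, 3 of 8 cytotoxic and natural killer cell markers fell and 3 of 6 conventional dendritic cell markers rose. Of the monocyte markers 1 of 10 fell, of the plasmacytoid dendritic cell markers 1 of 7 and of the red pulp macrophage markers 1 of 11. The other plasmacytoid dendritic cell markers did not share this direction: 5 of 7 estimates were positive and 2 negative, with a median log2 fold change of 0.27. Estimates were negative for 8 of 10 monocyte and 7 of 11 red pulp macrophage markers. Of 6 megakaryocyte markers 1 rose, and no neutrophil, mature B cell or T cell marker passed. With single libraries left out, 8 to 10 plasma cell markers and 2 to 5 cytotoxic and natural killer cell markers fell, while 0 to 4 conventional dendritic cell markers rose, none of them without 2DG replicate 11. Without untreated 10-week replicate 8, 3 monocyte and 3 red pulp macrophage markers fell and 3 mature B cell markers rose. In that setting 7.72% of all genes were called lower and 4.05% higher. Without 2DG replicate 12, 4 megakaryocyte markers rose, where 2.54% of all genes did. The summed plasma cell markers were 2602, 1751, 1683 and 2437 CPM in 2DG spleens, 6958, 3857, 6773 and 4224 CPM in untreated 10-week spleens and 4188, 3415, 3055 and 2213 CPM in 6-week spleens. Plasma cell sums were highest in untreated 10-week replicates 5 and 7, the libraries in which Zbp1, Oasl2 and Bst2 were highest in that group, and no marker of the list was at 0 in any library. This place was not particular to these genes. Replicate 5 was the highest of that group for 13 of 35 members and replicate 7 for 17, among them Isg15, Rsad2 and Isg20.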

How the data were processed

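RNA was measured in 12 mouse spleen samples; per the labels' protocols, poly(A)-selected libraries came from the TruSeq RNA v2 kit and carry no strand information. The deposited values are raw counts of reads, whole numbers in 1 table of genes by samples. Bowtie2 2.2.0, RSEM 1.2.12 and the build GRCm38 are named in the submitters' processing notes, without the step each served, and the sources used here do not give how reads shared by similar genes were handled. Groups came from sample titles, and columns from sample descriptions. Replicate numbers run from 1 to 12 across the groups and pair no samples. No pair of libraries of a group agreed within sampling noise (chi-square per gene of 10.5 to 85.2).

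Of 53715 identifiers 53620 matched GENCODE M21 (GRCm38) by Ensembl ID without its version; the remaining 95 took no more than 0.0158% of the counts in any library. The 35 members and all other lists were chosen with earlier results of these data known, and so were the named genes, which were the members past the threshold, the member with the smallest p of each role in the first 2 comparisons, 14 listed members, 10 listed signalling genes, of which 1 is not reported here, and up to 3 genes per pathway list.

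Counts were tested with edgeR 4.0.16 in R 4.3.3 (TMM, filterByExpr by group, robust glmQLFit and glmQLFTest) in 1 fit over all 12 libraries. P-values were adjusted by Benjamini-Hochberg across the 18542 tested genes (threshold 0.05), and each SE was taken as the absolute log2 fold change over the root of its F statistic. The library mean of the members used log2 CPM with a prior count of 2. Alternatives were DESeq2 1.42.0, voom with quality weights (limma 3.58.1), other size factors and filters, removal of 699 immunoglobulin and T cell receptor segments, a test against a fold of 1.5, fits of the compared groups only and libraries left out. The edgeR fit was checked on simulated counts, in which all groups shared 1 spread per gene. A spread that differs between groups was not checked. Counting precision follows from total counts of 15596040 to 26079979 per library; counts are reads without molecular identifiers.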

Additional observations from a re-analysis of the deposited data

Results flagged for a closer look

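Among 105 sets of 4 libraries examined (35 members in 3 groups), 12 held a library whose gap to its nearest neighbour took up most of the group's range, past the 95% limit for 4 values. For a single set, chance gives about 1 in 20. The sets share the same 12 libraries and are not independent, so their count cannot be set against that rate. Of the 12 sets past the limit, 7 held replicate 1 of the 6-week spleens at the top of its group. The levels of replicate 1 were 38.8 CPM for Usp18 (others 22.0 to 24.1), 59.9 CPM for Ifit2 (others 37.4 to 40.5), 69.8 CPM for Oas3 (others 31.1 to 34.8) and 47.9 CPM for Mx1 (others 25.4 to 28.8). They were 16.6 CPM for Mx2 (others 9.39 to 9.90), 657 CPM for Samd9l (others 593 to 596) and 68.5 CPM for Ifi204 (others 51.4 to 53.9).

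Replicate 6 of the untreated 10-week spleens stood at the bottom of its group for 4 members. It had 8.55 CPM for Ifit3 (others 16.5 to 17.4), 2.44 CPM for Ifit3b (others 4.33 to 4.69), 9.30 CPM for Mx1 (others 23.2 to 25.9) and 304 CPM for Sp100 (others 375 to 383). Ifit3 and Ifit3b are near-copies whose counts are not independent.

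In the 2DG spleens, replicate 10 was apart for Oasl1, at 14.9 CPM (others 11.5 to 12.0). The library mean of the 35 members was lowest in 2DG replicate 11, at 5.27 log2 CPM (others 5.45 to 5.48).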

How the results depend on the processing

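No paired analysis was possible because the libraries are numbered 1 to 12 and no replicate number occurs in more than 1 group. For 2DG against untreated at 10 weeks, the count of members called, 2 in the report, was 4 with DESeq2, 1 with no filter, 1 with only the compared groups, 0 against a fold change of 1.5, 0 to 5 with single libraries left out, 8 with untreated 10-week replicates 6 and 8 both left out and 14 with 6-week replicate 1 and untreated 10-week replicate 6 both left out, the last setting added after seeing the data. The count over all genes, 1376, was 2304 with DESeq2, 581 with only the compared groups, 83 against a fold change of 1.5, 3193 without replicates 6 and 8 and 514 to 2209 with single libraries left out.

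For untreated spleens at 10 against 6 weeks, 0 members were called, 0 to 2 with single libraries left out and 1 without replicates 6 and 8. The 1 gene called over all genes became 682 with DESeq2, 102 with no filter, 0 with only the compared groups, 0 against a fold change of 1.5, 2303 without replicates 6 and 8, 0 without 6-week replicate 1 and untreated 10-week replicate 6, and 0 to 1563 with single libraries left out. For 2DG against 6 weeks, 0 members became 5 with DESeq2, 4 with only the compared groups, 8 with voom, 0 to 2 with single libraries left out and 4 without replicates 6 and 8. The count over all genes, 24, was 902 with DESeq2, 98 with no filter, 1367 with only the compared groups, 1644 with voom, 0 against a fold change of 1.5, 758 without replicates 6 and 8 and 1 to 354 with single libraries left out. The causes of these shifts were not tested.

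The difference in the members' library mean, -0.12 log2 CPM for 2DG against untreated at 10 weeks, ran from -0.39 without untreated 10-week replicate 6 to 0.025 without replicate 7. No member's called fold change changed sign under any alternative run. Tests with 4 libraries a group and this spread leave all but large differences of Isg15, Rsad2, Oas2 and Oas3 undetectable. Their SEs for 2DG against untreated at 10 weeks were 0.62, 0.66, 0.45 and 0.52 log2. Near-copies limit Ifit3, Ifit3b, Oas1a and Trim30a. Unstranded reads limit Irf7, Usp18, Oasl1, Dhx58, Eif2ak2, Adar and Slfn5, whose exons overlap a gene on the other strand. Parp14, Herc6, Sp100 and Rtp4 share exon bases with a gene on the same strand.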
